A study of Mus musculus with 18 samples.

Results

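The genes described here are 8 members of the machinery through which calcium-regulating hormones act on the thick ascending limb (TAL) of the mouse kidney. They were chosen by name from the 55401 genes measured, and each was found in both the count and the TPM tables. *Casr* encodes the calcium-sensing receptor, *Pth1r* the receptor of parathyroid hormone, and *Vdr* the vitamin D receptor, whose partner in DNA binding is encoded by *Rxra*. *Cyp27b1* encodes the enzyme that makes active vitamin D and *Cyp24a1* the enzyme that degrades it. *Ramp1* and *Ramp3* encode receptor activity-modifying proteins, which attach to the calcitonin receptor and its relatives and set which ligand they answer to. Of the 8 genes, *Casr*, *Pth1r*, *Vdr*, *Rxra* and *Ramp3* passed the filter on low counts in every comparison, and *Cyp24a1*, *Cyp27b1* and *Ramp1* passed it in none.

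The TAL reabsorbs calcium and magnesium between its cells, through tight junctions whose selectivity is set by claudins. Calcium in the blood acts on the calcium-sensing receptor at the basolateral side of the cell and reduces this transport, while parathyroid hormone favours it through a receptor that raises cyclic AMP. The vitamin D receptor is a transcription factor that binds DNA with a retinoid X receptor once active vitamin D is bound.

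Gene expression was measured by RNA sequencing in 18 pools of 150 to 200 hand-dissected tubules, taken either from the cortex (CTAL) or from the outer medulla, in its inner stripe (MTAL). Knock-out animals (cKO) were *Cldn10* fl/fl with Ksp-Cre, whose promoter, that of Ksp-cadherin, drives the recombinase along the distal nephron. Wild-type animals (WT) were littermates that carried the same floxed alleles without Cre. All were adult males, 4 to 10 months old, labelled C57BL/6J and by the study's methods mostly of C57BL/6 background. There were 5 pools of WT CTAL, 5 of cKO CTAL, 5 of WT MTAL and 3 of cKO MTAL, each from a separate mouse. The medulla of the cKO kidney holds calcium deposits that made dissection difficult. The study left out 3 cKO pools, 1 of them, of CTAL, for a *Cldn10* level like that of WT CTAL.

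*Cldn10*, the targeted gene, was lower in every cKO pool than in every WT pool of the same segment. The study kept only cKO pools with lower *Cldn10* than WT, so this separation follows at least in part from the choice of pools. Levels are given in CPM (counts scaled to the library total, TMM-normalized). The mean of WT MTAL was 749.9 ± 60.5 and that of cKO MTAL 221.5 ± 72.6 CPM (SD, n = 5 and 3). For WT CTAL it was 499.2 ± 82.1 and for cKO CTAL 172.2 ± 10.5 CPM (SD, n = 5 each). Pool 1 of WT CTAL is titled as a knock-out but named as wild type in the labels. Its *Cldn10* level was 445.8 CPM, within the range of WT CTAL, 383.9 to 579 CPM, and above that of cKO CTAL, 156.3 to 185.3 CPM. The pool was used as WT CTAL, and where leaving it out or counting it as cKO CTAL changes a result this is said. Total counts per pool lay between 10824299 and 62339939. *Slc12a1*, the sodium-potassium-chloride cotransporter that defines the TAL, was abundant in all groups, from 13507 CPM on average in cKO MTAL to 15381 in WT MTAL. The defining proximal tubule genes *Slc2a2* and *Slc5a12* were under 1 CPM in every pool, but the summed level of all 12 proximal tubule markers was 58.2 to 401.7 CPM, most of it *Kap*, with group means of 79.7 to 184.3 CPM. Of 6 podocyte markers 3 were under 1 CPM in every pool, *Nphs1* among them, and the sum was 34.6 to 82.9 CPM, most of it *Podxl*, with group means of 33.7 to 59.5 CPM. *Xist*, which is transcribed from the inactive X chromosome of females, was present at 6.49 to 8.76 CPM in 7 of the 18 pools, although all animals were labelled male and every pool held Y-linked transcripts. It was found in 4 of 5 pools of WT MTAL, 2 of 5 of WT CTAL, 1 of 5 of cKO CTAL and 0 of 3 of cKO MTAL, and its highest level in the other pools was 0.739 CPM.

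The abundance of the members was compared per transcript length, in the deposited TPM (transcript abundance scaled for length). *Casr* was the most abundant in all pools except cKO CTAL replicates 4 and 7, where *Pth1r* was. In WT CTAL the median was 265.9 TPM for *Casr*, 147.7 for *Pth1r*, 48.3 for *Vdr*, 17.2 for *Rxra* and 5.57 for *Ramp3*. In WT MTAL it was 130.2 TPM for *Casr*, 29.9 for *Pth1r*, 19.1 for *Vdr*, 18.3 for *Rxra* and 2.26 for *Ramp3*. The order was the same in both, but the ranges of *Vdr* (18.6 to 22.8 TPM) and *Rxra* (13.2 to 22.5 TPM) overlapped in WT MTAL, whereas in WT CTAL the lowest *Vdr* value, 31.8 TPM, was above the highest of *Rxra*, 20.8 TPM. *Ramp1*, *Cyp24a1* and *Cyp27b1* were each below 2 TPM in all 18 pools.

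**Figure D1:**
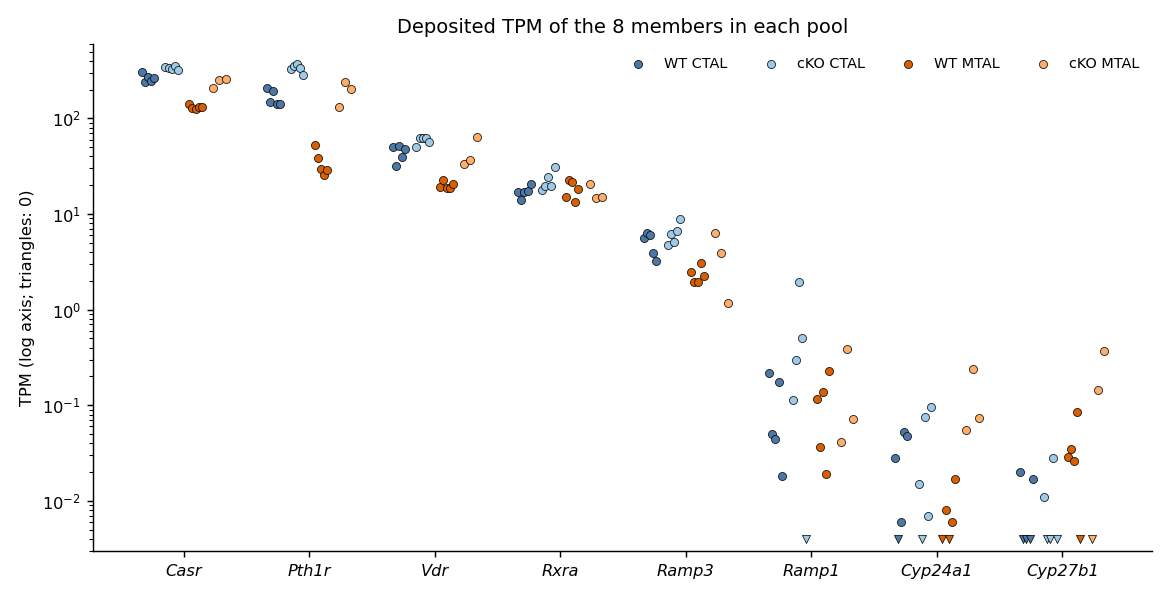
Deposited TPM (log axis) of the 8 members in each of the 18 pools, coloured by group, with pools at 0 drawn as triangles at the bottom. *Casr*, *Pth1r* and *Vdr* sit lowest in the 5 WT MTAL pools, *Rxra* stays between 13.2 and 30.8 TPM throughout, and *Ramp1*, *Cyp24a1* and *Cyp27b1* stay below 2 TPM.

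*Casr*, *Pth1r* and *Vdr* each had their highest mean CPM in cKO CTAL and their lowest in WT MTAL. The groups between differed in order, with the mean CPM of cKO MTAL above that of WT CTAL for *Pth1r* and below it for *Casr* and *Vdr*. In TPM the *Vdr* means of cKO MTAL and WT CTAL were 44.46 and 44.37. Because *Casr*, *Pth1r* and *Vdr* shared their highest and lowest groups, the stretches in front of their start sites are printed, from RefSeq on GRCm38.p6, 5′ to 3′ and without annotated exon sequence. *Casr* (ENSMUSG00000051980.13) lies on the minus strand at chr16:36493696-36562141, and its stretch of 243 bases is chr16:36562142-36562384. *Pth1r* (ENSMUSG00000032492.14) lies on the minus strand at chr9:110722085-110747145, and the 250 bases before the outermost of its 3 RefSeq start sites are chr9:110747146-110747395. *Vdr* (ENSMUSG00000022479.15) lies on the minus strand at chr15:97854425-97910630, and its stretch of 236 bases is chr15:97908311-97908546. The RefSeq start site used for *Vdr* lies inside the annotated gene, so this stretch is not in front of the outermost annotated start. Capitals mark matches, on either strand, to the half-sites bound by vitamin D and retinoid X receptors and to TGACG, the half-site of the cyclic AMP response element. The receptor half-sites searched were AGGTCA as the most common form, AGTTCA and also GGTTCA as its usual variants, and lastly the form GGGTCA.
Casr: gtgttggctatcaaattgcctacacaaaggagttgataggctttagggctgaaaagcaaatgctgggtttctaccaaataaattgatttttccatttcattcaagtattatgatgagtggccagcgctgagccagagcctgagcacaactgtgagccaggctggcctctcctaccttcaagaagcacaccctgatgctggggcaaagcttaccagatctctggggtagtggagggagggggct
Pth1r: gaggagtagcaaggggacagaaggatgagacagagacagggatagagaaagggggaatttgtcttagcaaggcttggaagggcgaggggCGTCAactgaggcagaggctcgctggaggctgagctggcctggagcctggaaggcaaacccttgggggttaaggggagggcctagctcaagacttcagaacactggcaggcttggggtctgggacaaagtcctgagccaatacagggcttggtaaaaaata
Vdr: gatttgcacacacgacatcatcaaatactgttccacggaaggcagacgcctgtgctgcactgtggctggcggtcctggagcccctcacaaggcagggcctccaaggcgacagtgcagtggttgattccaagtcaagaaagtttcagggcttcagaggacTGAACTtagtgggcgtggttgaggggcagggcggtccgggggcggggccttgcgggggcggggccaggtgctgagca

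The *Pth1r* stretch holds 1 TGACG, on the opposite strand, 157 to 161 bases before the start site. The *Vdr* stretch holds 1 AGTTCA, on the opposite strand, 86 to 91 bases before the start site, and the *Casr* stretch holds none of these letters. Of all 32851 RefSeq windows of 250 bases before a start site, 38.6% hold at least 1 of the vitamin D and retinoid X receptor half-sites and 17.8% hold TGACG. The direct repeat of such half-sites with 3 letters between them is in 0.0396% of all windows and in none of the 10 windows of the 7 members that have an entry. The full element TGACGTCA is in 1.55% of all windows and in no member's. The stretches also differed in base composition, with 48.8% G or C in the 250 bases before the start of *Casr*, 56% for *Pth1r* and 61.2% for *Vdr*.

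The first comparison asked how deletion of *Cldn10* affects the members in the medullary segment. 3 of the 5 members tested were higher in cKO MTAL than in WT MTAL (*Casr*, *Pth1r* and *Vdr*; edgeR quasi-likelihood test, adjusted p under 0.05), where 4.44% of the 12060 genes tested were called higher, 2.57% lower and 7.01% in either direction. 0 members were called lower, and at an unadjusted p under 0.05 and with DESeq2 the count was also 0. *Rxra* and *Ramp3* were not called. The median log2 fold change of the 5 members was 0.70, beside 0.00 over all genes tested. In bulk samples a change in the number of cells of a type cannot be told apart from a change in RNA per cell. *Slc12a1* itself was not called between these groups (log2 fold change -0.18 ± 0.11 SE, adjusted p = 0.348), and the summed level of the 8 TAL markers was 67881 to 80345 CPM in cKO MTAL and 51021 to 62397 in WT MTAL. *Umod* was the largest part of that sum, with means of 45008 CPM in cKO MTAL and 28426 in WT MTAL. Of the 8 markers 3 were called higher and 1 lower, and the list holds the deleted *Cldn10*. The part of that sum in the results was not tested.

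*Pth1r* showed the largest difference of the 5 members tested. Its levels were 68.4, 63.2, 43.6, 44.5 and 52.4 CPM in WT MTAL (replicates 11, 13, 15, 17 and 19) and 185.5, 337.6 and 303.7 CPM in cKO MTAL (replicates 16, 18 and 20). The groups did not overlap, and the lowest cKO MTAL pool, replicate 16, was 3.41 times the WT MTAL mean while replicates 18 and 20 were 6.2 and 5.58 times that mean. The log2 fold change was 2.35 ± 0.19 (SE; 5.08-fold, adjusted p = 7.52e-06), and *Pth1r* ranked 2 by p among all genes tested. Leaving out each pool in turn gave 2.18 to 2.57. *Pth1r* shares 5285 bases with *Myl3* on the opposite strand, and whether reads were counted by strand is not given in the sources used here. *Myl3* had at most 1.08 CPM in any pool.

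The proximal tubule and the distal convoluted tubule are also known for parathyroid hormone receptors, so their markers are given beside *Pth1r*. The summed level of the 12 proximal tubule genes was 118.1, 401.7 and 258.7 CPM in cKO MTAL replicates 16, 18 and 20 and between 70.2 and 140.8 CPM in WT MTAL. Of the 5 tested, *Kap* and *Slc34a1* were higher in cKO MTAL (log2 fold change 1.22 ± 0.28 and 2.39 ± 0.47 SE, adjusted p = 0.0171 and 0.00657). Replicates 18 and 20, with the higher marker sums, also had the higher *Pth1r*, 337.6 and 303.7 CPM, beside 185.5 CPM in replicate 16. Among the cKO CTAL pools the marker sum ran from 58.2 to 345.6 CPM and *Pth1r* from 388.3 to 501.1 CPM. The summed level of 5 distal convoluted tubule markers was 8.24 to 10.1 CPM in cKO MTAL and 3.29 to 8.03 in WT MTAL. In the cortex it was 7.9 to 103.6 CPM in cKO CTAL, highest in replicate 2, and 6.17 to 32.9 in WT CTAL. The part of these cells in the difference was not tested.

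**Figure D2:**
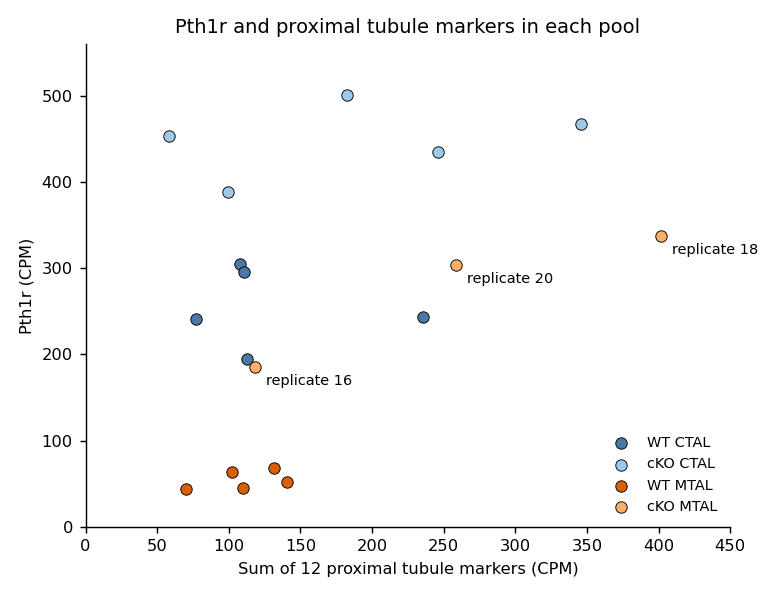
*Pth1r* (CPM) against the summed CPM of 12 proximal tubule markers in each of the 18 pools, coloured by group. The cKO MTAL pools have marker sums of 118.1, 401.7 and 258.7 CPM (replicates 16, 18 and 20) and *Pth1r* of 185.5, 337.6 and 303.7 CPM, and the 5 WT MTAL pools have sums of 70.2 to 140.8 and *Pth1r* of 43.6 to 68.4 CPM.

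*Casr* was 528.9, 419, 430.1, 501.5 and 482.7 CPM in WT MTAL (replicates 11, 13, 15, 17 and 19) and 697.2, 794.8 and 803.2 CPM in cKO MTAL (replicates 16, 18 and 20). All 3 cKO MTAL pools were above all 5 WT MTAL pools. The log2 fold change was 0.70 ± 0.11 (SE; 1.63-fold, adjusted p = 0.00143), and it stayed between 0.66 and 0.77 when each pool was left out. A small RNA gene on the same strand, *Gm25902*, shares 318 bases with *Casr* and had at most 1.13 CPM in any pool.

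*Vdr* was 71.5, 72.3, 66.8, 72.1 and 61.5 CPM in WT MTAL, a narrow range, and 113.7, 116.9 and 153.5 CPM in cKO MTAL, in the same order of replicates. Again the groups did not overlap, with cKO MTAL replicate 20 standing above the other pools of its group. The log2 fold change was 0.90 ± 0.13 (SE; 1.87-fold, adjusted p = 0.000457), and without replicate 20 it was 0.75. In TPM replicate 20 stood further apart, with 63.3 TPM against 33.1 and 37.0 TPM in replicates 16 and 18. That pool also had the highest summed level of principal cell markers, 1005 CPM, beside 71.1 to 331.0 CPM in the other MTAL pools, and its part in *Vdr* was not tested.

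Across all genes tested 6.82% had every cKO MTAL pool above every WT MTAL pool, as these 3 members did, and 7.56% had the reverse. The 1 WT MTAL pool without *Xist*, replicate 13, had 63.2 CPM of *Pth1r*, 419 of *Casr* and 72.3 of *Vdr*, so that each lay below every cKO MTAL pool, none of which had *Xist*. In one fit of all 18 pools with a term for *Xist*, the log2 fold changes were 2.26 for *Pth1r*, 0.76 for *Casr* and 0.79 for *Vdr* (adjusted p = 1.36e-06, 0.000428 and 0.00246). With *Xist* in 4 of 5 pools of WT MTAL and 0 of 3 of cKO MTAL, its part in MTAL cannot be fully told apart from that of genotype.

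*Rxra*, the partner of *Vdr* (GRCm38 chr2:27676440-27762957, plus strand), was not called. It was 55.95 to 66.1 CPM in WT MTAL, and 77.8, 53.4 and 57.7 CPM in cKO MTAL replicates 16, 18 and 20. The groups overlapped, and the log2 fold change of 0.06 had a 95% interval from -0.25 to 0.37 (adjusted p = 0.847). A change of the size of that in *Vdr* lies outside this interval. The ratio of *Vdr* to *Rxra* in TPM, given as a description, was 0.877 to 1.4 in WT MTAL and 1.62 to 4.19 in cKO MTAL.

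**Figure D3:**
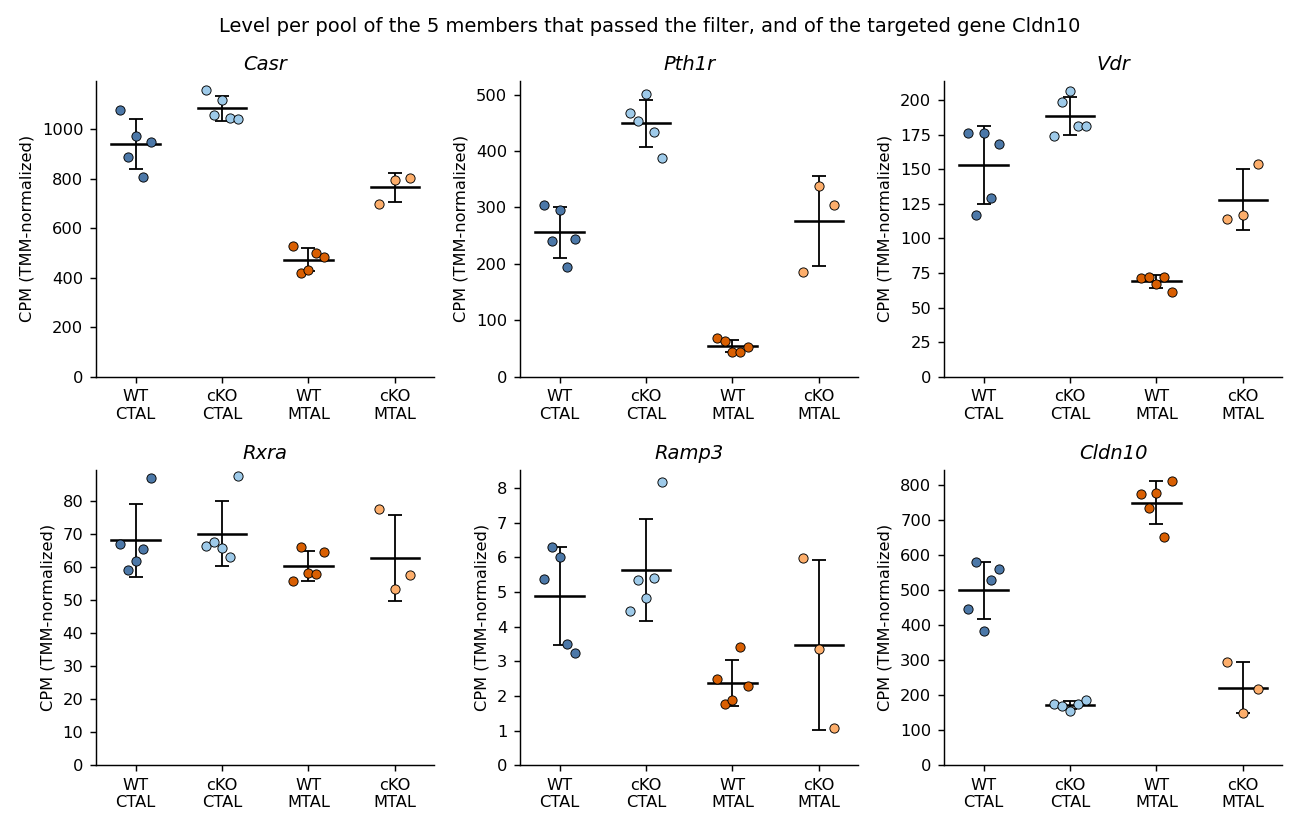
CPM (TMM-normalized) in each pool for the 5 members that passed the filter and for *Cldn10*, with points for pools, wide bars for group means and error bars for the SD (n = 5, or 3 in cKO MTAL). *Casr*, *Pth1r* and *Vdr* are highest in cKO CTAL and lowest in WT MTAL, *Rxra* overlaps between all groups, and *Cldn10* is lower in the cKO pools of each segment.

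The second comparison made the same contrast in the cortical segment. 1 of the 5 members tested was called, *Pth1r*, which was higher in cKO CTAL than in WT CTAL. Of the 11702 genes tested 0.658% were called higher, 0.564% lower and 1.22% in either direction. *Pth1r* was 304.6, 241, 295.8, 194.8 and 243.2 CPM in WT CTAL (replicates 1, 3, 8, 10 and 22) and 467.7, 453.7, 501.1, 434.4 and 388.3 CPM in cKO CTAL (replicates 2, 4, 7, 9 and 21). The lowest cKO CTAL pool was above the highest WT CTAL pool, a separation seen in 1.86% of genes tested, with the reverse in 1.24%. The log2 fold change was 0.80 ± 0.11 (SE; 1.74-fold, adjusted p = 0.00236), and leaving out each pool in turn gave 0.72 to 0.87. When the 3 pools with *Xist* were left out, the log2 fold change was 0.74 and was no longer called (adjusted p = 0.0711).

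*Casr* and *Vdr* were not called in the cortical segment. *Casr* was 807 to 1076 CPM in WT CTAL and 1042 to 1157 CPM in cKO CTAL, and the ranges overlapped at the top of WT CTAL, in replicate 1, the pool with conflicting labels. Its log2 fold change was 0.20 (95% interval 0.02 to 0.37, adjusted p = 0.353). *Vdr* was 116.8 to 176.4 CPM in WT CTAL and 173.7 to 206.5 CPM in cKO CTAL, with a log2 fold change of 0.28 (95% interval 0.05 to 0.52, adjusted p = 0.303). Exact two-sided Mann-Whitney tests on CPM gave p = 0.0556 for *Casr* and 0.0317 for *Vdr*, unadjusted and 2 of 40 such tests on the members. On CPM scaled by total counts alone both gave p = 0.0159 in the exact test. On the deposited TPM the ranges of *Casr* did not overlap (242.8 to 307.3 against 319.4 to 354.1 TPM), and the exact test gave p = 0.00794, the smallest it can give for 5 pools against 5.

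*Rxra* and *Ramp3* also overlapped between cKO CTAL and WT CTAL. The mean of *Rxra* was 68.2 ± 11.1 for WT CTAL and 70.3 ± 9.91 CPM for cKO CTAL (SD, n = 5 each), with a 95% interval of the log2 fold change from -0.21 to 0.27. That of *Ramp3* was 4.89 ± 1.43 for WT CTAL and 5.64 ± 1.47 CPM for cKO CTAL (SD, n = 5 each), with an interval from -0.33 to 0.72.

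The 2 genotype effects were compared directly, as the segment by genotype interaction in a fit of all 18 pools. *Pth1r* was the 1 member whose difference between cKO and WT was called as larger in MTAL than in CTAL, among 0.262% of 12586 genes tested that were called in this direction, 0.0238% in the other and 0.286% in either. The interaction term was 1.53 ± 0.23 on the log2 scale (SE, adjusted p = 0.00356), and it was called with every pool left out in turn (1.37 to 1.75). With limma on log2(TPM + 1) it was 1.397 and was not called (adjusted p = 0.0588). The terms of *Casr* and *Vdr* were 0.49 ± 0.13 and 0.60 ± 0.17 (SE) and not called (adjusted p = 0.0854 and 0.0967), although edgeR's likelihood ratio test and DESeq2 called both. The term of *Rxra* was 0.01 ± 0.18 and that of *Ramp3* 0.32 ± 0.54 (SE).

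**Figure D4:**
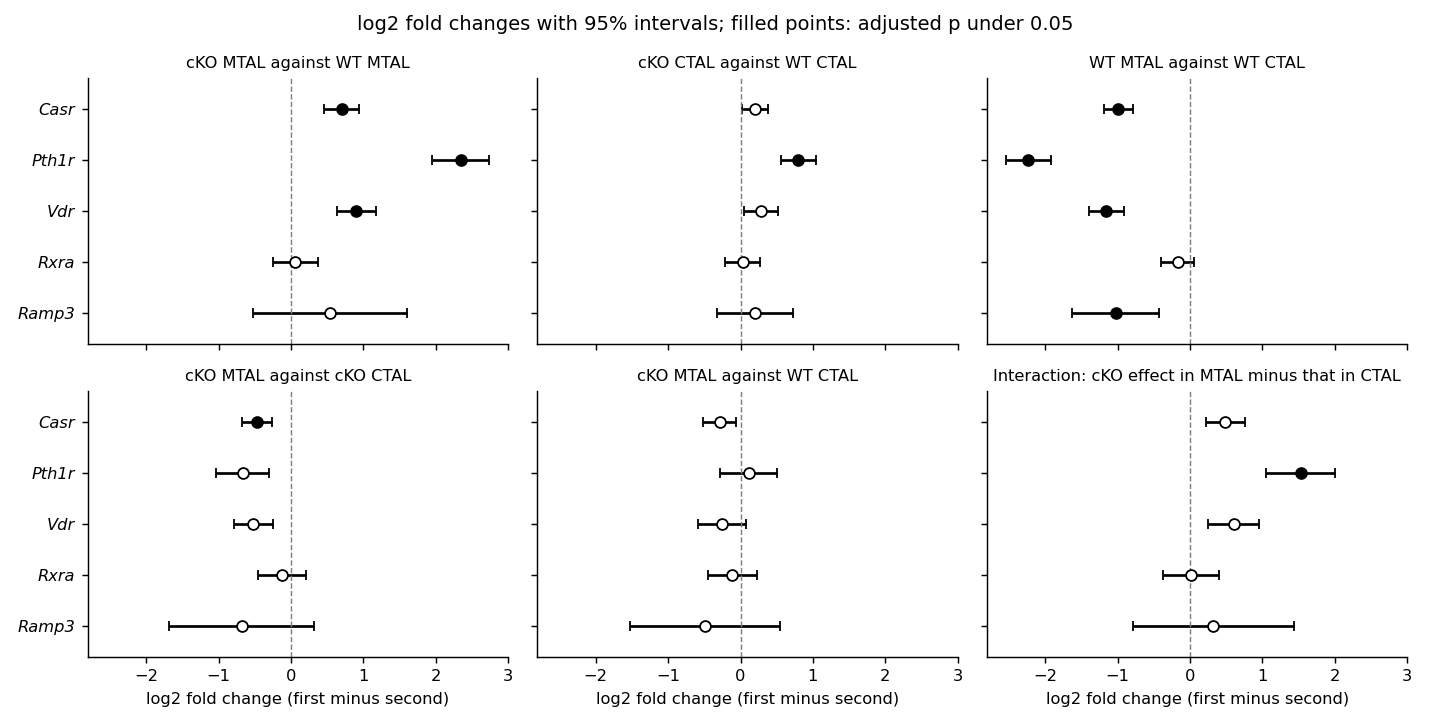
log2 fold changes of the 5 members that passed the filter, with 95% intervals, in the 5 comparisons and the interaction (edgeR quasi-likelihood fits); filled points have an adjusted p under 0.05. *Pth1r* is at 2.35 between the genotypes in MTAL, 0.80 in CTAL and 0.11 between cKO MTAL and WT CTAL, and the interval of *Rxra* includes 0 in every panel.

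The third comparison described the normal difference between segments. 4 of the 5 members tested were lower in WT MTAL than in WT CTAL (*Casr*, *Pth1r*, *Vdr* and *Ramp3*), where 4.1% of the 11650 genes tested were called lower, 2.76% higher and 6.87% in either direction. Of these members *Ramp3* passed the filter through its WT CTAL pools, so its call is described apart below. The log2 fold change was -0.99 ± 0.09 for *Casr*, -2.23 ± 0.15 for *Pth1r*, -1.16 ± 0.12 for *Vdr* and -1.03 ± 0.28 for *Ramp3* (SE; adjusted p = 4.63e-06, 1.13e-07, 8.65e-06 and 0.0379). The levels of the first 3 did not overlap between segments, as for 4.32% of genes tested in this direction and 3.06% in the other. *Rxra*, with means of 60.6 ± 4.53 CPM for WT MTAL and 68.2 ± 11.1 for WT CTAL (SD, n = 5 each), was not called (95% interval of the log2 fold change -0.40 to 0.06).

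*Ramp3* (GRCm38 chr11:6658521-6677475, plus strand) was 2.48, 1.77, 1.88, 3.43 and 2.30 CPM in WT MTAL (replicates 11, 13, 15, 17 and 19) and 5.37, 6.31, 6.01, 3.51 and 3.24 CPM in WT CTAL (replicates 1, 3, 8, 10 and 22). WT MTAL replicate 17 lay between the 2 lowest WT CTAL pools. It was the only WT MTAL pool above 3 CPM, while all WT CTAL pools were. *Ramp3* thus passed the filter through the group where it was higher, and without the filter edgeR did not call it (adjusted p = 0.101). The call was lost without any 1 of 7 of the 10 pools, WT CTAL replicates 1 (the pool with conflicting labels), 3 and 8 and WT MTAL replicates 11, 13, 15 and 19, with log2 fold changes of -1.04 to -0.93 (adjusted p = 0.0558 to 0.0975). In cKO MTAL it was 5.97, 3.36 and 1.07 CPM in replicates 16, 18 and 20, a spread that reached below the lowest and above the highest WT MTAL pool, and its 95% interval against WT MTAL was -0.52 to 1.60. Since *Ramp3* is also expressed in blood vessels, the summed level of 8 endothelial markers is given beside it. It was 319.8 to 497.8 CPM in WT MTAL, 261.6 to 560.5 CPM in WT CTAL and 211.2, 178.2 and 307 CPM in cKO MTAL replicates 16, 18 and 20, and its part in *Ramp3* was not tested.

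The last 2 comparisons set cKO MTAL beside the cortical groups. They share the cKO MTAL pools with the first comparison, so they are not independent of it. Against cKO CTAL, 1 of the 5 members tested was called lower in cKO MTAL, *Casr* (log2 fold change -0.47 ± 0.10 SE, adjusted p = 0.031), where 0.631% of 12044 genes tested were called lower, 1.12% higher and 1.75% in either direction. That call was lost without cKO CTAL replicate 2, 4, 7 or 9 or cKO MTAL replicate 16 (-0.48 to -0.43, adjusted p = 0.054 to 0.103). *Pth1r* and *Vdr* were 0.67 ± 0.17 and 0.52 ± 0.12 (SE) lower on the log2 scale without being called (adjusted p = 0.0713 and 0.0599), while DESeq2 and edgeR's likelihood ratio test called both. The CPM of *Casr*, *Pth1r* and *Vdr* did not overlap between cKO MTAL and cKO CTAL, as for 5.87% of genes tested in this direction and 4.2% in the other, but the TPM of *Vdr* did (33.1 to 63.3 against 50.6 to 63.0 TPM).

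Against WT CTAL, 0 of the 5 members tested were called with edgeR, beside 2.5% of 12024 genes tested (1.63% higher and 0.865% lower), and the count was also 0 with DESeq2, edgeR's likelihood ratio test and limma. At an unadjusted p under 0.05 there was 1, *Casr*, which was lower in cKO MTAL (log2 fold change -0.29, 95% interval -0.52 to -0.06, adjusted p = 0.165). Its CPM did not overlap between these groups, as for 6.29% of genes tested in this direction and 5.54% in the other, but the nearest pools were at 803.2 and 807 CPM. On TPM the groups overlapped (207.6 to 256.1 against 242.8 to 307.3 TPM), and the exact test gave p = 0.393 there and 0.143 on CPM scaled by total counts. *Pth1r* had means of 275.6 ± 79.8 CPM for cKO MTAL and 255.9 ± 44.9 for WT CTAL (SD, n = 3 and 5), with a 95% interval of the log2 fold change from -0.29 to 0.51. Those of *Vdr* were 128 ± 22.1 and 153.3 ± 28.3 CPM, with an interval from -0.59 to 0.08. Those of *Rxra* were 63.0 ± 13.1 and 68.2 ± 11.1 CPM, with an interval from -0.45 to 0.23.

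The ratio of *Pth1r* to *Casr*, both in TPM, differed between the genotypes in each segment and is given as a description. It was 0.368, 0.3, 0.241, 0.196 and 0.221 in WT MTAL replicates 11, 13, 15, 17 and 19, and 0.632, 0.932 and 0.785 in cKO MTAL replicates 16, 18 and 20. In WT CTAL it was 0.533 to 0.706 with a median of 0.608, and in cKO CTAL 0.885 to 1.14 with a median of 0.958. The cKO pools of each segment thus lay above its WT pools. The ratio of *Vdr* to *Casr* overlapped between all groups, with medians of 0.164 in WT CTAL, 0.179 in cKO CTAL, 0.152 in WT MTAL and 0.159 in cKO MTAL.

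The enzymes of vitamin D metabolism were close to the limit of detection, and their counts are given without folds. *Cyp24a1*, a classical target of the vitamin D receptor (GRCm38 chr2:170482708-170497145, minus strand), had 0, 1, 0, 1 and 1 counts in WT MTAL (replicates 11, 13, 15, 17 and 19) and 2, 12 and 3 counts in cKO MTAL (replicates 16, 18 and 20). In CPM the lowest cKO MTAL pool, 0.147, was above the highest WT MTAL pool, 0.0501, a separation seen in 6.82% of the genes that passed the filter. Without the filter edgeR called *Cyp24a1* higher in cKO MTAL (adjusted p = 0.0419 over 30288 genes), and no fold is given for so few counts. Replicate 18 held 12 of the 17 counts of its group, and the exact two-sided Mann-Whitney test gave p = 0.0357, unadjusted and the smallest it can give for 3 pools against 5. *Cyp24a1* had 0 to 4 counts in WT CTAL and 0 to 5 in cKO CTAL. It shares 718 bases with *Pfdn4* on the opposite strand, which had 5.16 to 12.3 CPM. *Cyp27b1* (chr10:127048250-127053006, plus strand) had 0 to 1 counts in WT CTAL, 0 to 3 in cKO CTAL, 0 to 9 in WT MTAL and 0 to 5 in cKO MTAL. A count of 0 in a pool allows up to 3 counts, or 0.0481 to 0.277 CPM depending on the depth of the pool, so a 0 does not exclude a level below this.

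*Ramp1* (chr1:91179822-91225196, plus strand) was also rare, with 1 to 9 counts in WT CTAL, 1 to 9 in WT MTAL and 1 to 13 in cKO MTAL. In cKO CTAL it had 10, 3, 28, 52 and 0 counts in replicates 2, 4, 7, 9 and 21, so that replicates 7 and 9 held 80 of its 93 counts. Of the partners with which RAMPs form receptors, *Calcr*, the calcitonin receptor, had at most 0.394 CPM in any pool. *Calcrl*, the calcitonin receptor-like receptor, had 3.68 CPM in cKO MTAL and 6.79 in WT MTAL, and 3.65 CPM in cKO CTAL and 6.33 in WT CTAL. Of the 8 endothelial markers 4 were called lower in cKO MTAL than in WT MTAL and 0 in cKO CTAL than in WT CTAL, where their sum was 222.5 to 329.7 against 261.6 to 560.5 CPM, and their part in *Calcrl* was not tested. Of the 9 genes of the list of RAMP partners and their ligands 3 were tested, and 0 were called in any comparison by the edgeR quasi-likelihood test. At an unadjusted p under 0.05 there was 1 lower in cKO MTAL than in WT MTAL and there were 2 lower in cKO CTAL than in WT CTAL, where edgeR's likelihood ratio test called 1. There was also 1 lower in cKO MTAL than in WT CTAL at an unadjusted p under 0.05. DESeq2 and limma called 0 in every comparison.

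The other genes of the pathways were taken from lists that leave out the members. Their counts stand beside the shares of all genes tested, 4.44% higher and 2.57% lower between cKO MTAL and WT MTAL, 0.658% and 0.564% between cKO CTAL and WT CTAL, and 2.76% and 4.1% between the WT segments. Of 20 genes of calcium-sensing receptor signalling, all tested, 3 were higher and 0 lower in cKO MTAL than in WT MTAL, and the median log2 fold change was 0.17. *Itpr3*, a channel that releases calcium from the endoplasmic reticulum, was 37.9 CPM in cKO MTAL and 14.8 in WT MTAL (log2 fold change 1.37 ± 0.24 SE, adjusted p = 0.00293). *Flna*, a filamin that binds the receptor and the actin skeleton, was 204.8 and 100.1 CPM (1.04 ± 0.14 SE, adjusted p = 0.000351). The other was *Plcb3*, a phospholipase C, at 0.74 ± 0.20 (SE, adjusted p = 0.0353), a call lost without cKO MTAL replicate 16 or 20 or WT MTAL replicate 11, 17 or 19 (0.58 to 0.89 over all pools left out, largest adjusted p = 0.149). Between cKO CTAL and WT CTAL 0 of the 20 were called by the edgeR quasi-likelihood test, beside 3 higher at an unadjusted p under 0.05 and 2 higher with DESeq2. Between the WT segments *Plcb1*, *Itpr2* and *Flna* were lower in WT MTAL (log2 fold change -0.56 to -0.35). Against WT CTAL 2 of the 20 were higher and 0 lower in cKO MTAL, beside 1.63% and 0.865% of all genes tested. They were *Itpr3* (1.02 ± 0.18 SE, adjusted p = 0.0126) and *Flna*. The call of *Flna* held in 4 of the 8 fits that leave out a pool (0.52 to 0.88, largest adjusted p = 0.0588). In this comparison limma called 0, and DESeq2 called 3 (Wald) or 4 (likelihood ratio) higher and 1 lower.

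Of the 30 genes of parathyroid hormone receptor signalling, 22 were tested between cKO MTAL and WT MTAL and 1 was higher, a share near that of all genes. It was *Arrb2*, an arrestin that binds activated receptors (log2 fold change 0.89 ± 0.25 SE, adjusted p = 0.0398), and its call was lost without cKO MTAL replicate 16 or any 1 of the WT MTAL pools (0.44 to 1.10 over all pools left out, largest adjusted p = 0.311). DESeq2 called 1 higher and 1 lower. The median over the 22 was 0.10. *Gnas*, the G protein that couples the receptor to cyclic AMP, was 567.5 to 600.2 CPM on average in all 4 groups. Between cKO CTAL and WT CTAL 0 of 20 were called by edgeR, DESeq2 or limma, beside 2 higher and 1 lower at an unadjusted p under 0.05. *Prkar2b*, a regulatory subunit of protein kinase A, was the 1 gene called between cKO MTAL and cKO CTAL, at 4.14 and 0.889 CPM (2.22 ± 0.38 SE, adjusted p = 0.0125). Without any 1 of the cKO MTAL pools it did not pass the filter. It was thus tested only because it was high in that group, and the call is not taken as support for a difference. *Pth*, which encodes the hormone, had 0 counts in every pool.

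Of 19 genes of vitamin D metabolism and the receptor complex 14 were tested. *Kl*, which encodes klotho, the co-receptor of the hormone FGF23, was the 1 gene called between genotypes in each segment. It was 536.9 CPM in cKO MTAL and 229.1 in WT MTAL (log2 fold change 1.23 ± 0.12 SE, adjusted p = 1.82e-05), and 755.6 CPM in cKO CTAL and 492.4 in WT CTAL (0.61 ± 0.09 SE, adjusted p = 0.0045). *Kl* and *Fgfr1*, an FGF receptor, were lower in WT MTAL than in WT CTAL (-1.10 ± 0.08 and -0.61 ± 0.10 SE). The median of the list was -0.01 between cKO MTAL and WT MTAL.

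Of 10 genes of distal calcium transport 7 were tested between cKO MTAL and WT MTAL, and 5 were higher and 0 lower, with a median log2 fold change of 1.73. *Cldn14*, a claudin that reduces paracellular calcium transport and is known to be induced through the calcium-sensing receptor, was 18.4, 19.3 and 153.1 CPM in cKO MTAL replicates 16, 18 and 20 and 1.32 to 5.01 CPM in WT MTAL. Replicate 20 carried most of the cKO MTAL mean, and the log2 fold change of 4.81 ± 0.63 (SE, adjusted p = 0.000242) was 3.09 ± 0.48 without it (SE, adjusted p = 0.00228). Among WT MTAL pools only replicate 13 was above 3 CPM, so *Cldn14* passed the filter mainly through cKO MTAL. Replicate 20 also had the highest sums of principal and intercalated cell markers, 1005 and 192.8 CPM. The other MTAL pools had 71.1 to 331 and 15.98 to 70.45 CPM, and the part of these cells was not tested. *S100g*, which encodes the calcium-binding protein calbindin-D9k, was 14.7 and 2.42 CPM (2.60 ± 0.43 SE, adjusted p = 0.00186). *Cldn16*, a claudin of the calcium and magnesium pathway, was 70.5 and 21.4 CPM (1.73 ± 0.16 SE, adjusted p = 1.43e-05). *Atp2b4*, a plasma membrane calcium pump, and *Cldn19*, the partner of *Cldn16*, were the other 2 (1.29 and 0.64, adjusted p = 0.0288 and 0.00763). The call of *Atp2b4* was lost without cKO MTAL replicate 18 or WT MTAL replicate 11, 15, 17 or 19 (0.61 to 1.56 over all pools left out, largest adjusted p = 0.262).

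In the cortex *Cldn14* and *Cldn16* were the 2 of 8 called higher in cKO CTAL than in WT CTAL (2.57 ± 0.28 and 0.49 ± 0.09 SE, adjusted p = 0.000441 and 0.0181). The call of *Cldn16* was lost when 1 of 4 pools was left out, replicates 9 and 21 of cKO CTAL and replicates 10 and 22 of WT CTAL (0.44 to 0.55, largest adjusted p = 0.0594). Between the WT segments *Cldn16*, *Atp2b4*, *S100g* and *Slc8a1*, a sodium-calcium exchanger, were lower in WT MTAL (-1.88, -1.55, -1.52 and -1.16), but the call of *Slc8a1* held without WT CTAL replicate 1 or WT MTAL replicate 15 and was lost without any other pool (-1.49 to -0.97, largest adjusted p = 0.116). The interaction was called for *Cldn16* (1.23 ± 0.16 SE, adjusted p = 0.00121), as for *Pth1r*. *Cldn14* was also higher in cKO MTAL than in WT CTAL (3.82 ± 0.60 SE, adjusted p = 0.00557), by 2.09 ± 0.33 without replicate 20 (SE, adjusted p = 0.012). It was the 1 of 8 tested genes of its list called in that comparison. The likelihood ratio test of edgeR also called 1, while DESeq2 (Wald and likelihood ratio) and limma called 0.

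**Figure D5:**
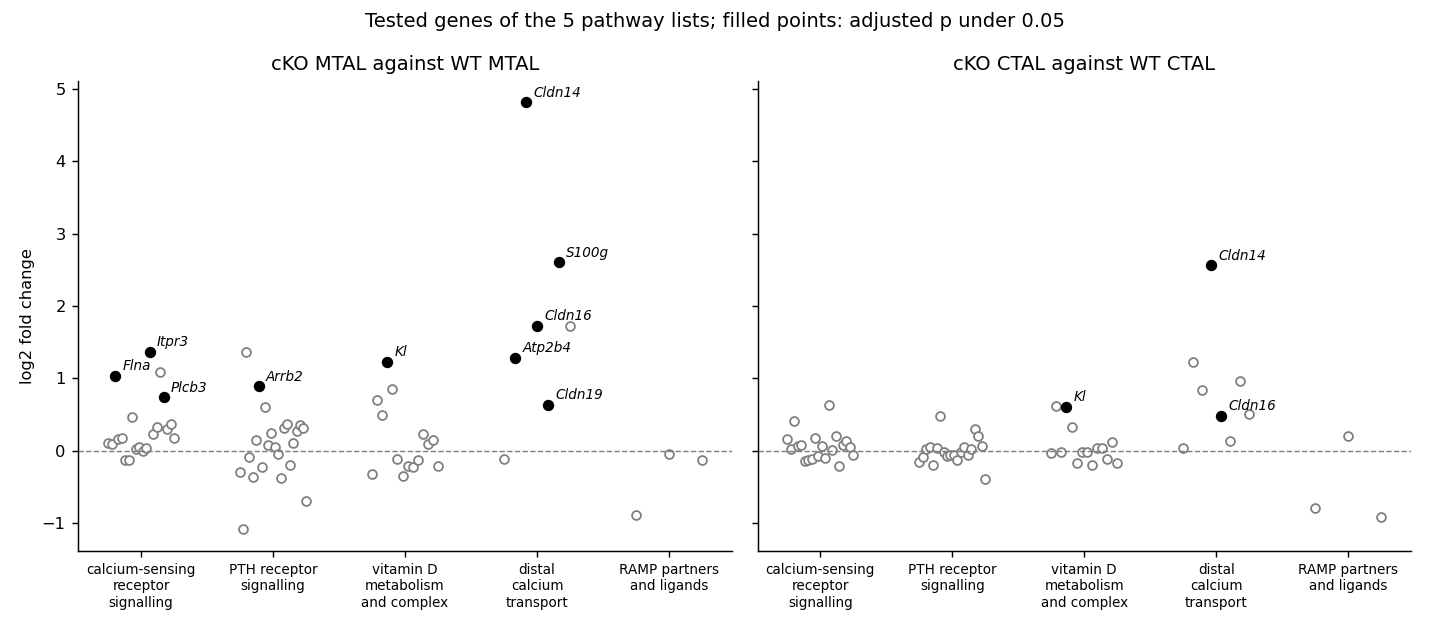
log2 fold changes of the tested genes of the 5 pathway lists between the genotypes, in MTAL (left) and CTAL (right), where each point is 1 gene and filled points have an adjusted p under 0.05. In MTAL 5 of 7 distal calcium transport genes are called higher, beside 3 of 20 genes of calcium-sensing receptor signalling and 1 of 22 of parathyroid hormone receptor signalling, and in CTAL *Cldn14*, *Cldn16* and *Kl* are called.

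Across the 18 pools the levels of *Casr*, *Pth1r* and *Vdr* ran in parallel, which is a description over pools that share their groups. Pearson's r of log2(CPM + 1) was 0.96 for *Casr* and *Pth1r*, 0.97 for *Casr* and *Vdr* and 0.95 for *Pth1r* and *Vdr*. With the group means removed it was 0.63, 0.51 and 0.50. *Rxra* had r of 0.29 to 0.41 with these 3 genes. Among all 12586 genes, those most like *Casr* were *C130074G19Rik*, *Tmem52b*, *Ggt1*, *Slc1a1* and *Aebp1* (r 0.97 to 0.99). Those most like *Pth1r* were *Ggt1*, *Cldn16*, *Kl*, *Cd9* and *Thsd4* (r 0.97 to 0.98). Among those most like *Vdr* were *Hpcal4*, *Dusp9*, *C130074G19Rik* and *Ddah2* (r of 0.97 each). All of these genes had their lowest mean in WT MTAL and their highest in cKO CTAL, as for *Ggt1*, at 92.3 CPM in WT MTAL and 489.0 CPM in cKO CTAL.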

How the data were processed

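RNA was sequenced from poly-A selected, strand-specific libraries. The deposited tables hold expected counts and TPM per gene, which the authors made with DRAGEN against mm10 and GENCODE. Reads were trimmed with fastp by the study's methods, while the submitters' processing notes name FastQC, Trimmomatic and Picard, and the setting for strand is not given in the sources used here. Of the gene IDs 99.5% were found in the GRCm38 annotation. The expected counts were rounded, and genes with at least 3 CPM in 3 pools (comparisons with cKO MTAL) or 5 pools (others) were kept. Groups were compared with edgeR 4.0.16 in R 4.3.3 (TMM, quasi-likelihood test, Benjamini-Hochberg adjustment over all genes kept, called at adjusted p under 0.05), each comparison on its own pools and the interaction on all 18. The scripts were checked on simulated data. Single members were also compared by exact Mann-Whitney tests (scipy 1.17.1). Alternatives were DESeq2 1.42.0, limma 3.58.1 on log2(TPM + 1) and log2(TPM + 0.1), other normalization and filters, and leaving out each pool. The pools that hold *Xist* were also left out or given a term in the model. Total counts of 10824299 to 62339939 per pool set a floor of 3 counts for values of 0, which covers counting error only. Each pool came from a separate animal. The members and lists were chosen with earlier results of these data known. Genes of the pathway lists were named when called with a log2 fold change of 1 or more in size, up to 4 per list and comparison, and where 5 or fewer were called the others were named after their values were seen, as were genes named for their level. Some genes that met these rules are not reported here.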

Additional observations from a re-analysis of the deposited data

Results flagged for a closer look

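3 of the 24 groups of 5 pools held a pool far from the other 4, where chance gives about 1 in 20. *Rxra* was 87.2 CPM in WT CTAL replicate 22, beside 59.1 to 67.1 CPM in the other pools. *Rxra* was 87.7 CPM in cKO CTAL replicate 21, beside 63.3 to 67.8 CPM. *Ramp3* was 8.17 CPM in the same cKO CTAL pool, beside 4.45 to 5.42 CPM.

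The genotype effect on *Pth1r* differed between the segments. The log2 fold change between cKO and WT was larger by 1.53 in MTAL than in CTAL, by the interaction test (adjusted p = 0.00356), and all 3 cKO MTAL pools and all 5 cKO CTAL pools were above the WT pools of their segment.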

How the results depend on the processing

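No paired analysis was possible because the groups share no replicate numbers. The higher *Casr*, *Pth1r* and *Vdr* in cKO MTAL than in WT MTAL were called under every alternative run, the 8 fits that leave out a pool included. Between cKO CTAL and WT CTAL the count of members called higher fell from 1 to 0 without the pools that hold *Xist*. Between cKO MTAL and cKO CTAL the count called lower was 1. It was 3 with edgeR's likelihood ratio test, DESeq2 (Wald and likelihood ratio), no filter, one fit of 18 pools and that fit with an *Xist* term, 2 with RLE normalization or with the pool of conflicting labels counted as cKO CTAL, 0 with limma at either pseudocount and without the *Xist* pools, and 0 to 2 when each pool was left out. For the interaction the count called higher was 1, with 3 under edgeR's likelihood ratio test and both DESeq2 tests, 0 under limma and 1 to 2 when each pool was left out. The cause of these changes was not tested.

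Values that were not called also turned direction. For *Rxra* this was -0.0086 (no filter), -0.10 and -0.11 (limma, log2(TPM + 1) and log2(TPM + 0.1)) and -0.12 to 0.17 (each pool left out) in MTAL, -0.0618 to 0.13 (each pool left out) in CTAL, 0.0509 and 0.0526 (limma) between the WT segments, and -0.0351 (no filter), -0.45 and -0.47 (limma) and -0.16 to 0.13 (each pool left out) for the interaction. For *Pth1r* between cKO MTAL and WT CTAL leaving out each pool gave -0.0624 to 0.33, and for the *Ramp3* interaction -0.29 to 0.77. Exact tests whose direction turned had p = 0.571 (*Rxra*, MTAL, CPM by total counts), 0.691 (*Rxra*, WT segments, TPM), 0.786 and 1 (*Ramp1*, MTAL and WT segments, TPM), and 0.31 and 0.691 (*Ramp3*, CTAL, TPM and CPM by total counts). The *Ramp3* call between the WT segments was also lost with no filter (adjusted p = 0.101) and in the fit of all 18 pools without and with an *Xist* term (0.077 and 0.134). Leaving out the *Xist* pools was not run for comparisons with WT MTAL, where 1 pool would remain, or for the interaction. The 3 cKO MTAL pools limit precision there.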
